A study of Homo sapiens with 10 samples.

Results

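The genes of the mevalonate and cholesterol pathway were followed in SKBR3 cells. SKBR3 is an established line from a breast carcinoma, with HER2 amplified and p53 mutant. The list held 31 genes of sterol synthesis, its control, and sterol transport, out of 19775 genes named on the array. Each gene was represented by its brightest probe set, and 28 of the 31 passed the signal filter that left 12034 genes for testing. MVD, which makes isopentenyl pyrophosphate, lay below that filter with signals of 2.93 to 43.7. FDFT1, the squalene synthase, and CYP51A1, the lanosterol demethylase, had no probe set named for them alone and were not analysed here.

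Expression was measured on 10 single-colour Affymetrix arrays, 1 per sample. Cells kept in charcoal-stripped serum had received siRNA against p53 (p53i) or, as negative control, an siRNA to a bacterial gene, LacZ (LacZi). For each siRNA there were 2 untreated arrays and 1 array each after 8, 20 and 50 h with calcitriol (D3, the hormonal form of vitamin D3) at 100 nM. The title of the p53i array at 8 h reads p53Zi. Its source label, which names cells knocked down for mutant p53, placed it with p53i. Between transfection and D3 there were 48 h according to the series text, but 24 h according to the sample text. The labels call the untreated arrays biological replicates, but no source used here says that the D3 arrays came from separate cultures. The p-values therefore reflect the spread among these samples alone, which may be technical. No untreated array is matched to a D3 time, so the effects of D3 and of longer culture cannot be told apart. In extracted RNA, fewer cells that express a gene and less RNA per cell cannot be told apart either.

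CYP24A1, the calcitriol-degrading enzyme used here as a check on the hormone, stood at 23.7 to 40.0 on the untreated arrays and at 4234 to 6476 on the D3 arrays. How far the p53 siRNA lowered its target was not analysed here. Array medians lay between 35.7 and 44.3. The luminal markers fixed for this line summed to 78295.5 to 87116.5 on the LacZi arrays and 91004.6 to 117461 on the p53i arrays, and GRB7, KRT7 and KRT8 among them were higher in p53i cells by the limma test. CDH1, another of these markers, lay below the signal filter. Marker lists of fibroblasts, endothelium, leukocytes, liver and adipocytes summed to at most 581 on any array, and none of their genes passed for siRNA over all conditions or for the mean of the D3 times. At 50 h of D3 the liver marker FGB, which encodes part of fibrinogen, did pass: it read 4.33 to 40.2 on the untreated arrays and 221 and 272 at 50 h, up by 2.74 ± 0.43 (SE, limma adjusted p = 0.00568). The liver list summed to at most 161 on the untreated arrays and 408 with D3, while its ALB, APOA1 and TTR lay below the signal filter. The 3'/5' ratio of the ACTB control probe sets, a measure of RNA integrity, averaged 6.22 ± 1.77 in p53i cells and 4.46 ± 0.523 in LacZi cells (SD, n = 5 each; two-sided exact permutation test, p = 0.0714). Between the D3 and untreated arrays it differed by less (5.41 ± 0.996, n = 6, against 5.24 ± 2.33, n = 4, exact permutation p = 0.895). The highest ratios were those of p53i untreated replicate 2 (8.72) and p53i with D3 for 20 h (7.11).

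Cholesterol is built from acetyl-CoA through mevalonate and squalene to lanosterol, which a chain of demethylases, reductases and isomerases then turns into cholesterol. Transcription of most of these enzymes is driven by SREBP-2, the product of SREBF2, which SCAP carries out of the endoplasmic reticulum when sterols are scarce and which the INSIG proteins hold back when sterols are plentiful. Cells also take up cholesterol in lipoproteins, release it from lysosomes through NPC1 and NPC2, store it as esters and export it through ABC transporters. DHCR7 sits where this pathway meets vitamin D, because it consumes the sterol from which skin makes vitamin D3.

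**Figure D1:**
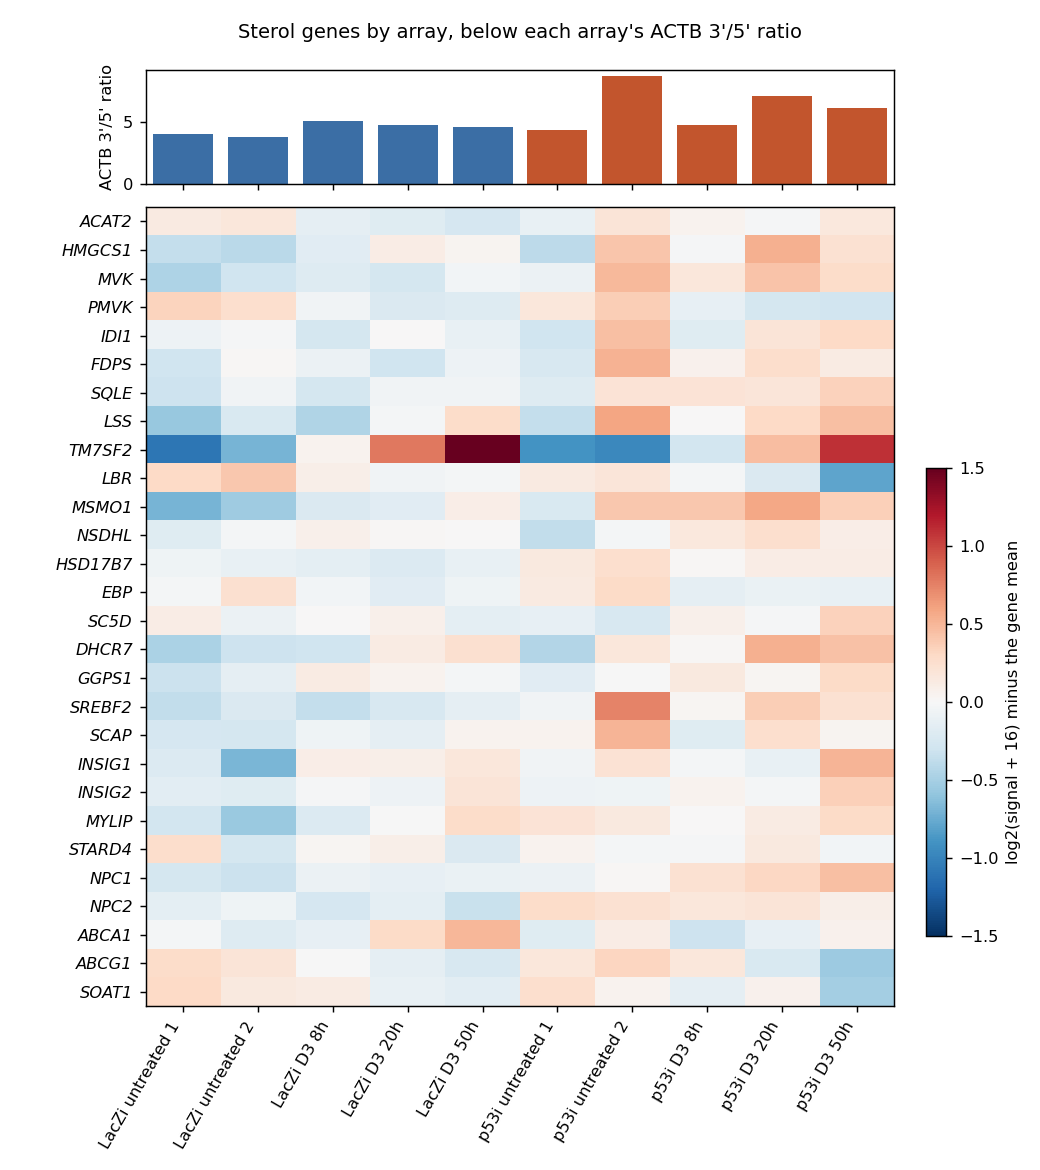
Each row of the lower panel is 1 of the 28 tested genes in pathway order and each column 1 array, coloured by log2(signal + 16) minus the gene's mean over the 10 arrays. Bars above give the ACTB 3'/5' ratio of each array, highest at 8.72 on p53i untreated replicate 2, where 22 of the 28 genes were higher than on replicate 1. TM7SF2 shows the widest range, from low on the 4 untreated arrays to highest at 50 h with D3.

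The first comparison asks how D3 changed these genes, as the mean of the 3 times against untreated cells in an additive model with the siRNA (limma, p-values adjusted over all 12034 genes). TM7SF2, a sterol reductase that acts after lanosterol demethylation, rose by 1.52 ± 0.10 (SE) on the log2(signal + 16) scale, a 2.86-fold change. DHCR7, the last reductase of the pathway, rose by 0.44 ± 0.11. PMVK, which adds a phosphate to phosphomevalonate, fell by 0.47 ± 0.09, LBR, the other sterol reductase of the TM7SF2 step, fell by 0.43 ± 0.10, and ABCG1, a sterol exporter, fell by 0.40 ± 0.09. Thus 5 of the 28 tested genes passed the test (17.9%), 2 upward and 3 downward, where 4.4% of all genes did, 1.99% upward and 2.41% downward. Their median difference was 0.13, beside -0.0047 for all genes tested. With arrays centred on their medians, 1 of the 28 was called higher and 3 lower, and the share of higher genes among all called genes was 21.3% in place of 45.2%.

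TM7SF2 gave signals of 354 and 466 on the untreated LacZi arrays, and of 799, 1338 and 2221 after 8, 20 and 50 h with D3. In p53i cells its untreated signals were 405 and 386, and those with D3 were 631, 1068 and 1656. Every D3 array stood above every untreated array, and for both siRNAs the signal was higher at each later time. The fitted log2 difference was 0.80 at 8 h, 1.54 at 20 h and 2.21 ± 0.14 (SE) at 50 h, the last a 4.64-fold change (limma adjusted p = 0.048, 2.31e-04 and 5.62e-06). The rise from 8 to 50 h was itself 1.41 ± 0.16 (adjusted p = 0.0066), and TM7SF2 was the 1 gene of 28 called for it (all genes 0.133%, with 0.108% higher and 0.0249% lower). Among all 12034 genes the mean difference of TM7SF2 had rank 10 from the highest, and it was called under each of the 22 alternatives run, at 1.41 to 1.60. The call at 8 h was lost with median centring (0.75, adjusted p = 0.143) and with each left-out array but p53i untreated replicates 1 and 2 (0.69 to 0.86). The rise from 8 to 50 h was lost without any of the 4 arrays of those times (1.29 to 1.53, adjusted p = 0.0696 to 0.161).

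DHCR7 behaved like TM7SF2 in sign but not in size, a contrast chosen with these values known and therefore given without a test. Its signals were 1248 and 1407 in untreated LacZi cells, and 1420, 1900 and 2057 at the 3 D3 times in order. In p53i cells they were 1286 and 1968 untreated, and 1770, 2523 and 2362 with D3. The groups overlapped, because p53i untreated replicate 2 stood above the 3 lowest D3 arrays. The difference was 0.13 at 8 h, 0.59 at 20 h and 0.60 ± 0.14 (SE) at 50 h, of which the last passed the test (limma adjusted p = 0.0407), as the mean over times did (adjusted p = 0.0411). Of all genes tested, 4.86% had a mean difference at or above that of DHCR7. Leaving out any 1 array other than p53i untreated replicate 2 ended the call on the mean (0.31 to 0.47, adjusted p = 0.0558 to 0.139), and without that replicate it was 0.55 and called. The 50 h call was lost without LacZi untreated replicate 1 or any 1 of the 6 D3 arrays (0.54 to 0.65, adjusted p = 0.0635 to 0.247). The second DHCR7 probe set gave 0.12, and the mean over both gave 0.28 and was not called. The calls on the mean and at 50 h were also lost with median centring, without the signal filter and without the intensity trend.

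**Figure D2:**
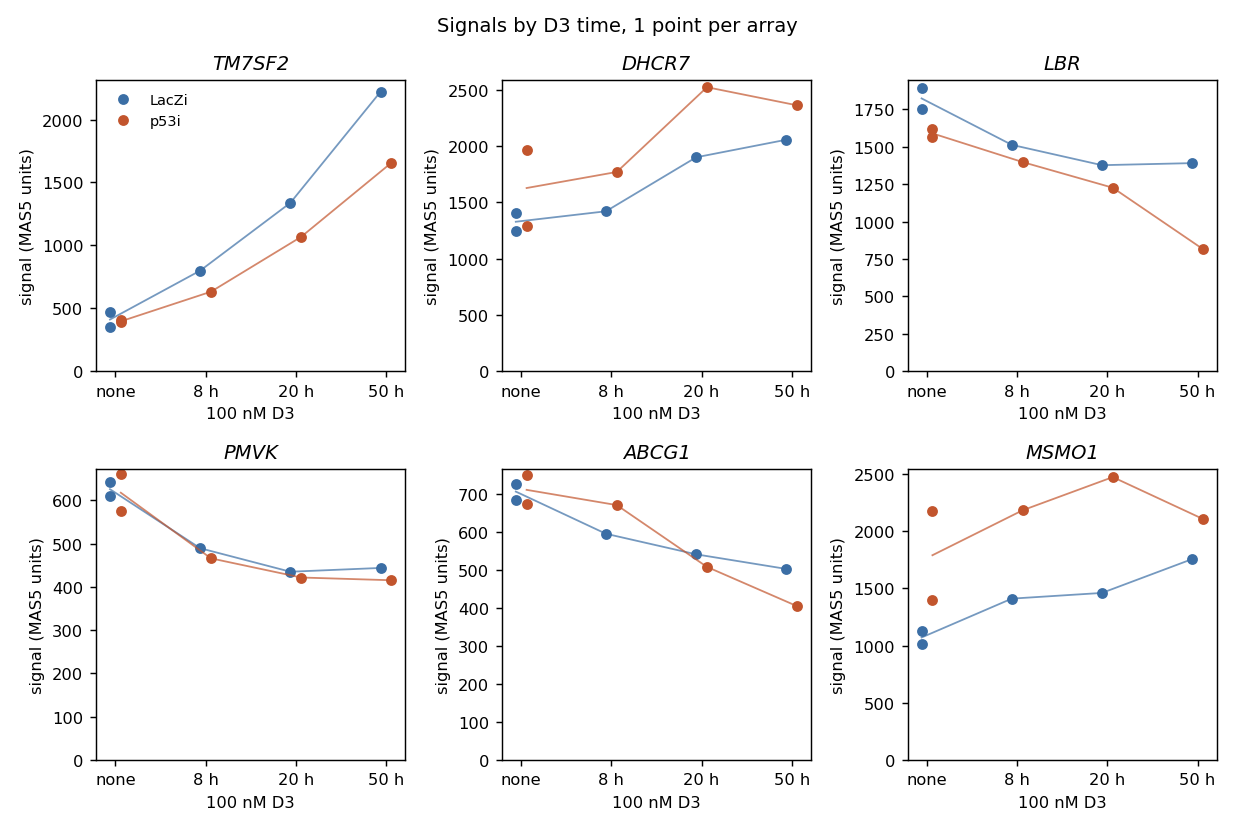
Signals (deposited MAS5 units, linear axis from 0) of 6 genes against time with 100 nM D3, 1 point per array, in LacZi (blue) and p53i (orange) cells; lines join the mean of the 2 untreated arrays to the lone arrays at 8, 20 and 50 h. The times are evenly spaced and not to scale. TM7SF2 reaches 2221 at 50 h in LacZi cells, whereas LBR, PMVK and ABCG1 lie lower at 50 h than on every untreated array.

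LBR moved the other way. It read 1754 and 1893 in untreated LacZi cells against 1513, 1377 and 1391 with D3, and 1563 and 1617 in untreated p53i cells against 1398, 1226 and 816 with D3. No D3 array reached the lowest untreated one, and the p53i array at 50 h was lowest of all. At 50 h LBR fell by 0.67 ± 0.13 (SE), a 1.59-fold change (limma adjusted p = 0.0171). Without that single p53i array the 50 h difference was -0.37 and not called (adjusted p = 0.303). The call on the mean over times (adjusted p = 0.0329) was lost without any 1 array other than LacZi D3 50 h and p53i untreated replicate 2, at -0.46 to -0.33.

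TM7SF2 and LBR thus moved in opposite directions under D3 although both reduce the same sterol bond, and their promoters are shown side by side, with DHCR7 and MSMO1 for comparison. The sequences are the 250 bases before the start of each gene in RefSeq (GRCh38.p14), 5' to 3' on the gene's own strand: TM7SF2 at chr11:65111622-65111871 (plus strand), DHCR7 at chr11:71448394-71448643 (minus strand), LBR at chr1:225428822-225429071 (minus strand) and MSMO1 at chr4:165327419-165327668 (plus strand). RefSeq's table lists 2 starts for DHCR7, and the first listed was used. The DHCR7 window lies within the RefSeq bounds of the gene (chr11:71427287-71449043), so it is not that before its outermost start. Capitals mark CCAAT boxes (CCAAT or its complement ATTGG) and, in MSMO1, the core of a sterol regulatory element, TCACTCCA.
TM7SF2: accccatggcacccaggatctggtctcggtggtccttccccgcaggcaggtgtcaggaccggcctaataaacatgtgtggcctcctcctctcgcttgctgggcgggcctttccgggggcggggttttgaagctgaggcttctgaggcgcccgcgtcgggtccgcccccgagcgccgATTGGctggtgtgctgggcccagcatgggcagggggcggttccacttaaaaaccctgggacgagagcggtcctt
DHCR7: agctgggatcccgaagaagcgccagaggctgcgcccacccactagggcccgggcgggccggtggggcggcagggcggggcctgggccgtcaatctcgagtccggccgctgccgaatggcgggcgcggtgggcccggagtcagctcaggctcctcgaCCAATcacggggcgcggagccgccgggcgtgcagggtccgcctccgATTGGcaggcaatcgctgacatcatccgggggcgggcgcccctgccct
LBR: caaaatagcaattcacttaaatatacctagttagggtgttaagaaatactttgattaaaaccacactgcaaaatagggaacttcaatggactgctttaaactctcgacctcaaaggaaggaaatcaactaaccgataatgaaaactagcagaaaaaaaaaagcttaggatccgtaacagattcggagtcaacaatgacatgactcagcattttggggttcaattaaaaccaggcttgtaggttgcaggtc
MSMO1: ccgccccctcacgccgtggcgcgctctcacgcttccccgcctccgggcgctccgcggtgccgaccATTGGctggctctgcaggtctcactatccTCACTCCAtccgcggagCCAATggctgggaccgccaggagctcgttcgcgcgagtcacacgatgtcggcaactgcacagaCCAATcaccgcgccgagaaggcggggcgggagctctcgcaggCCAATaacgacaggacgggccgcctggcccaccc

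TM7SF2 held 1 CCAAT box, at -74 to -70 from the start, and DHCR7 held 2, at -94 to -90 and -48 to -44. MSMO1 held 4 of them and the sterol element core at -156 to -149, whereas LBR held neither. Over windows of 300 bases that also take in 50 bases after the start, searched on both strands, 18 of the 27 listed genes with a window held CCAAT (66.7%), as did 36.4% of 15843 protein-coding windows. The sterol element core, TCACNCCA, was found in MVK, MSMO1 and SREBF2 (3 of 27, or 11.1%, against 3.74%), the GC box GGGCGG in 24 (88.9% against 58.5%) and the E-box CACGTG in 5 (18.5% against 8.88%). The direct repeat of the vitamin D receptor motif with 3 bases between was in none of the 27 windows, including those of TM7SF2 and DHCR7, and in 0.0821% of all windows. These are matches of letters in short windows, with no measure of binding. The shares were not tested.

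Among the enzymes that lead to farnesyl pyrophosphate, 1 of 6 tested passed for D3, and it fell. PMVK read 642 and 609 in untreated LacZi cells against 489, 435 and 444 with D3, and 575 and 661 in untreated p53i cells against 466, 422 and 415. The groups were separate, and the 8 h arrays were already below the untreated ones. Its mean difference was -0.47 ± 0.09 (SE) with limma adjusted p = 0.0146, and at 50 h -0.52 ± 0.12 (adjusted p = 0.0304). Leaving out 1 array (LacZi untreated replicate 1, LacZi at 8 h, or either 20 h array) left the mean at -0.47 to -0.46 with adjusted p = 0.0501 to 0.0595. The 50 h call was lost without LacZi untreated replicate 1 or any 1 of the 6 D3 arrays (-0.54 to -0.49, adjusted p = 0.0551 to 0.282). The other 5 were not called: ACAT2, the thiolase that begins the pathway, was at -0.16, HMGCS1, which makes HMG-CoA, at 0.31, MVK at 0.15, the isomerase IDI1 at -0.02 and FDPS, with signals of 1690 to 2500 with D3 and 1684 to 2997 without, near 0. The squalene epoxidase SQLE and the cyclase LSS stood at 0.15 and 0.23, also not called.

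Of the 8 tested enzymes after lanosterol, TM7SF2 and DHCR7 rose, LBR fell, and 5 did not pass. MSMO1, which oxidises methyl groups of the sterol ring, had a mean difference just above that of DHCR7, 0.44 ± 0.12 (SE), with a limma adjusted p of 0.0624. NSDHL, its partner dehydrogenase, was at 0.25, and its 6 D3 signals (400 to 478) lay above its 4 untreated ones (304 to 392). EBP, the sterol isomerase, was at -0.26, with D3 signals of 935 to 1020 below the untreated ones of 1030 to 1291. The reductase HSD17B7 and the desaturase SC5D were at -0.09 and 0.14. Over all 28 genes, 2 had D3 arrays entirely above the untreated ones (7.14%, where 1.88% of all genes did) and 4 had them entirely below (14.3%, where 2.47% did): TM7SF2 and NSDHL above, and PMVK, LBR, EBP and ABCG1 below.

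The controllers of the pathway were not called for D3. INSIG1 and INSIG2 stood at 0.30 and 0.20, MYLIP, a ubiquitin ligase for lipoprotein receptors, at 0.20, SCAP at -0.01 and SREBF2 at -0.04. INSIG2 was higher on all 6 D3 arrays (294 to 401) than on the mean untreated array of the same siRNA, where the untreated arrays spanned 271 to 297. GGPS1, which makes the prenyl donor geranylgeranyl pyrophosphate, was likewise higher on all 6, by 0.26 on average, and not called. In all, 7 of the 28 genes were higher on 6 of 6 D3 arrays and 7 were lower on 6 of 6, where 10.6% and 12.9% of all genes were.

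Of 6 transport, export and esterification genes, ABCG1 fell and 5 did not pass. ABCG1 read 727 and 685 in untreated LacZi cells against 595, 541 and 502 with D3, and 672 and 749 in untreated p53i cells against 670, 508 and 404. The p53i array at 8 h lay just under the lowest untreated array, and all later arrays lay further below. Its difference was -0.40 ± 0.09 (SE) on the mean (limma adjusted p = 0.0337) and -0.63 ± 0.13 at 50 h (adjusted p = 0.0181). Its 3 other probe sets gave -0.18, -0.07 and 0.06, and the mean over probe sets gave -0.15 and no call. Without LacZi untreated replicate 1 or either 50 h array the 50 h difference was -0.80 to -0.47 and not called. Of the fits that left out 1 array, those without LacZi D3 50 h or p53i untreated replicate 2 kept the call on the mean, and the other 8 gave -0.45 to -0.35 with none. The esterifying enzyme SOAT1 stood at -0.31, NPC1 at 0.28, NPC2 at -0.12, the exporter ABCA1 at 0.12 and the carrier STARD4 at -0.01.

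**Figure D3:**
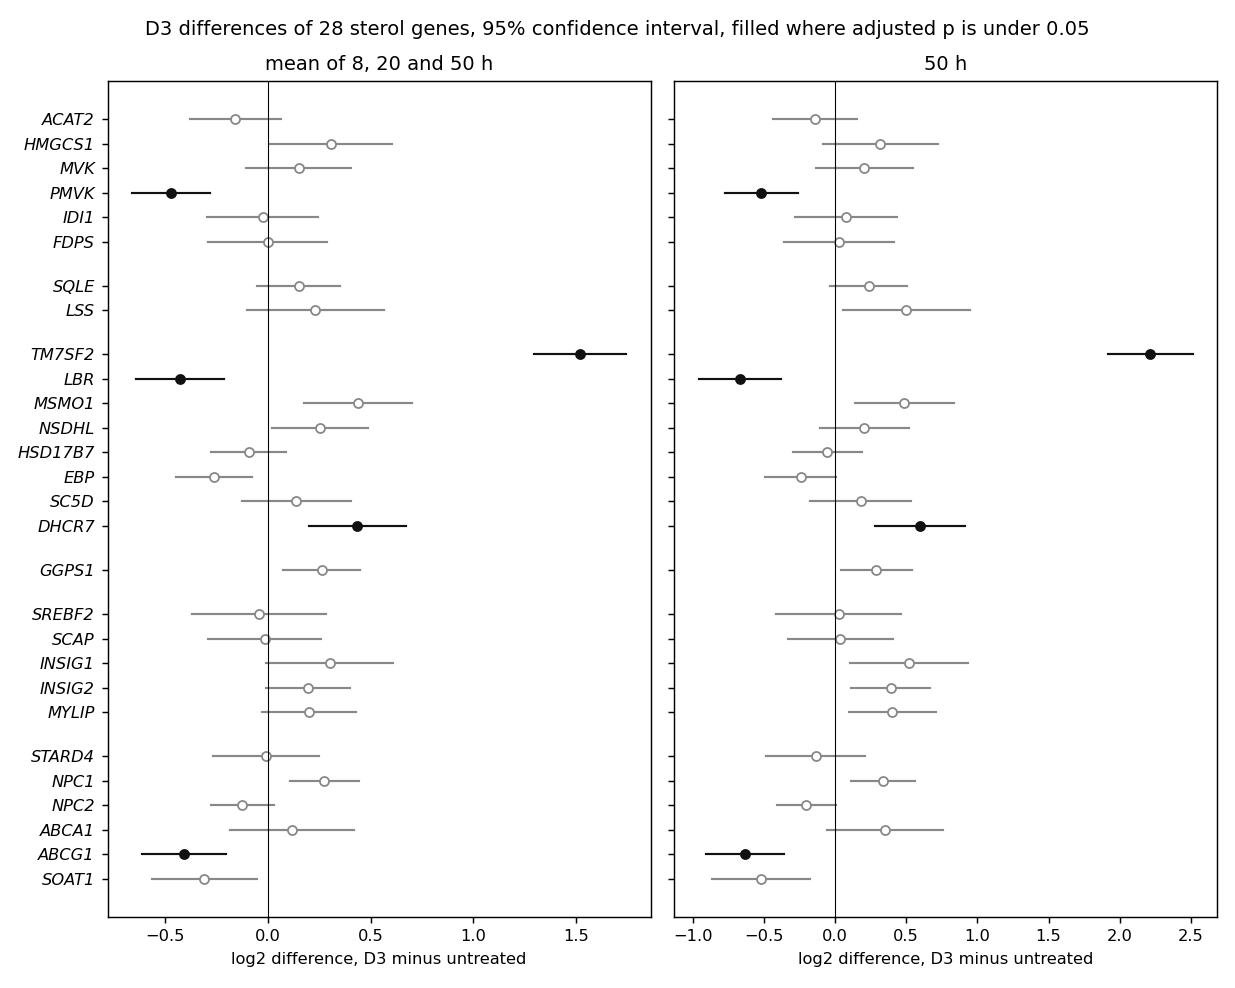
Fitted D3 minus untreated differences (log2(signal + 16)) of the 28 tested genes in pathway order, as the mean of 8, 20 and 50 h (left) and at 50 h (right); bars are 95% confidence intervals and filled points passed the limma test at an adjusted p under 0.05. TM7SF2 stands at 1.52 and 2.21, the other 27 between -0.47 and 0.44 on the left and between -0.67 and 0.60 on the right.

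Setting TM7SF2 and DHCR7 aside, the remaining 26 genes had a median D3 difference of 0.06, with 14 above 0 and 12 below. Of them 0 were called higher, which follows from that choice because TM7SF2 and DHCR7 were the only listed genes called higher. By limma 3 were called lower (11.5%, where 2.41% of all genes were). An unadjusted p under 0.05 was found for 10 (38.5%), where 19.4% of all genes had one. At single times, 1 of the 28 was called at 8 h (all genes 0.175%, with 0.141% higher and 0.0332% lower). At 20 h it was again 1 (0.59%, with 0.357% higher and 0.233% lower). At 50 h it was 5 (4.3%, with 1.83% higher and 2.48% lower), and the calls at 50 h were on the same genes as the calls on the mean. The liver marker FGB was also called higher at 50 h, and its part in the 50 h differences was not tested. The medians of the 28 were -0.0048, 0.11 and 0.19 at the 3 times. Without p53i untreated replicate 2, 8 genes were called on the mean, the added ones being HMGCS1 (0.48), LSS (0.44) and MSMO1 (0.58), all higher. Over all genes, the fits with 1 array left out called 123 to 852 on the mean, where all 10 arrays gave 529.

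The second comparison asks how siRNA against p53 changed these genes, over all 10 arrays with D3 time in the model. The genes were mostly a little higher in p53i cells: 22 of the 28 had a difference above 0, and their median was 0.20 where that of all genes was -0.0049. By the test, 4 rose and 0 fell (14.3% called, where 6.49% of all genes were, 3.38% higher and 3.11% lower): MSMO1 by 0.61 ± 0.12 (SE), MVK by 0.50 ± 0.11, NPC2 by 0.38 ± 0.07 and NPC1 by 0.36 ± 0.08. With arrays centred on their medians SQLE was also called, and 72.6% of all called genes were higher in place of 52.1%. The RNA integrity measure moved with this comparison, as given above: with it as a covariate the median of the 28 was 0.05 and 0 were called, and without the 2 arrays of the highest ratio the median was 0.10 and 0 were called. Its part in these differences was not tested.

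MVK, the first kinase of the pathway, read 537, 603, 646, 618 and 723 on the LacZi arrays (untreated replicates 1 and 2, then 8, 20 and 50 h with D3). On the p53i arrays it read 697, 1048, 839, 1005 and 901 in the same order. At every matched condition p53i cells were higher, and the groups overlapped only between the lowest p53i and the highest LacZi array. The difference of 0.50 had a limma adjusted p of 0.0264. It was 0.40 without p53i untreated replicate 2 and still called, and it lost its call without any other array except p53i untreated replicate 1 (0.46 to 0.55, adjusted p = 0.0537 to 0.115). Its mean over probe sets was 0.34, not called.

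MSMO1 read 1012, 1130, 1411, 1461 and 1757 on the LacZi arrays and 1401, 2180, 2184, 2475 and 2108 on the p53i arrays, in the same order. The untreated p53i replicates lay far apart, and the lower of them fell among the LacZi arrays. MSMO1 had the largest siRNA difference of the 28 (limma adjusted p = 0.0136), a 1.52-fold change. It was 0.50 without p53i untreated replicate 2 and called, and 0.57 without either 20 h array and not called. With the RNA integrity covariate it was 0.39, and that of MVK was 0.28, neither called.

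NPC1 and NPC2 act in turn to move cholesterol out of lysosomes. NPC2 read 1071, 1128, 995, 1073 and 934 on the LacZi arrays and 1440, 1396, 1331, 1353 and 1256 on the p53i arrays, so that every p53i array was above every LacZi array. Its difference of 0.38 (limma adjusted p = 0.0106) stood at 0.40 with the RNA integrity covariate, with an adjusted p of 0.0558. It was 0.39 and not called without either 20 h array. NPC1 read 1202, 1154, 1362, 1324 and 1350 on the LacZi arrays and 1359, 1471, 1694, 1798 and 1987 on the p53i arrays. Here the lowest p53i array fell just under the highest LacZi array, and the gap between siRNAs was widest at 50 h. NPC1 passed with an adjusted p of 0.0177, but without any 1 of the 20 h or 50 h arrays it was 0.32 to 0.35 and not called. Its other probe sets above the filter gave 0.12 and 0.04, and the mean over probe sets gave 0.08 and no call.

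**Figure D4:**
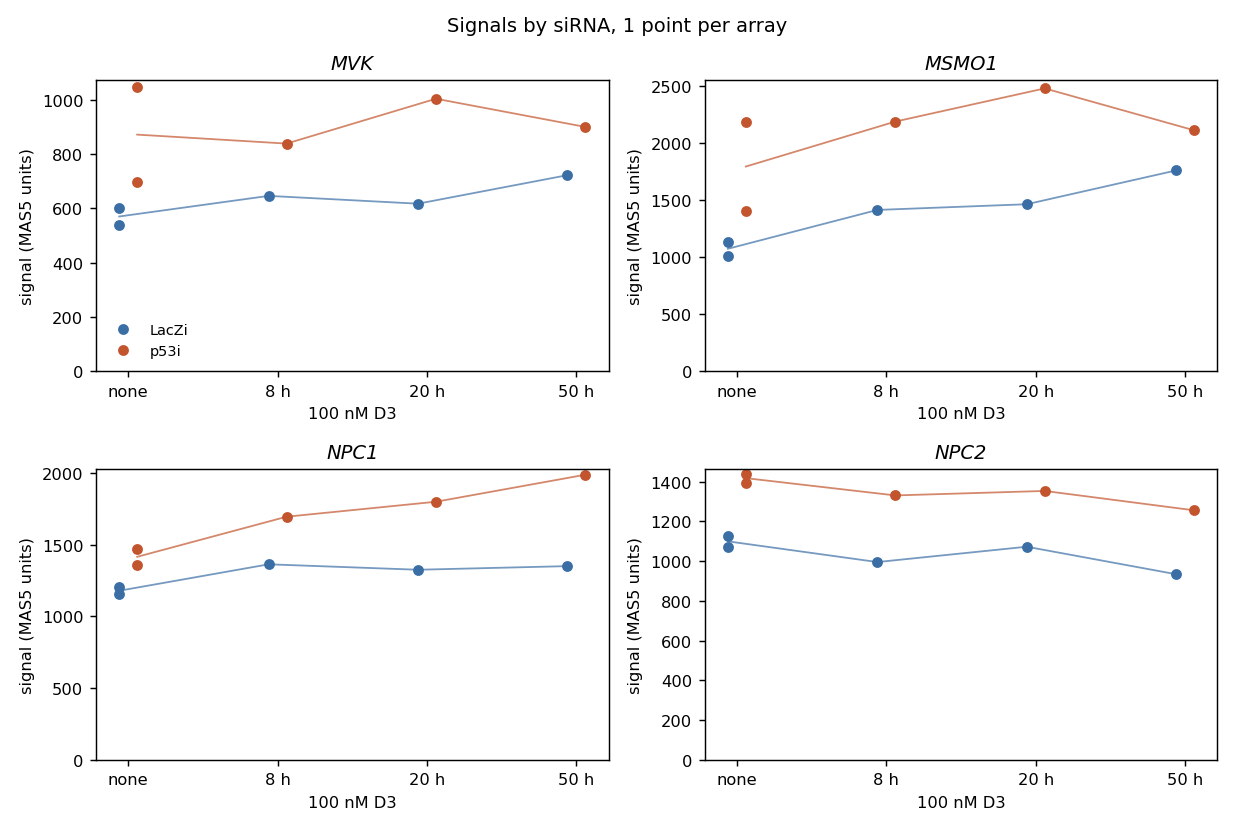
Signals (deposited MAS5 units, linear axis from 0) of the 4 genes called higher in p53i cells, 1 point per array, against time with 100 nM D3 (evenly spaced, not to scale); lines join the mean of the 2 untreated arrays to the lone arrays at 8, 20 and 50 h. The p53i (orange) line lies above the LacZi (blue) line at each time, and p53i untreated replicate 2 is the high untreated point of MVK (1048) and MSMO1 (2180).

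Of the 24 genes that did not pass for siRNA, SREBF2 had the largest difference, 0.53 ± 0.15 (SE, limma adjusted p = 0.0539). Its p53i signals (236 to 422) all lay above its LacZi signals (187 to 224), although its other 2 probe sets gave 0.23 and 0.08. HSD17B7 was separate in the same way (566 to 669 against 482 to 535) at 0.26, measured by a probe set that may also bind related transcripts. With NPC2 these made 3 of 28 genes whose p53i arrays all lay above the LacZi arrays (10.7%, where 3.09% of all genes did), and 0 of 28 lay entirely below (3.3%). The remaining mevalonate and squalene enzymes were at 0.11 for ACAT2, 0.31 for HMGCS1, 0.19 for IDI1, 0.30 for FDPS, 0.29 for SQLE, 0.40 for LSS and -0.05 for PMVK.

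The enzymes after lanosterol were not all on one side. DHCR7 was at 0.29, but both reductases of the TM7SF2 step were lower in p53i cells, TM7SF2 at -0.23 ± 0.10 and LBR at -0.29 ± 0.10 (SE), neither of them called (limma adjusted p = 0.194 and 0.0982). These 2 were lower at each of the 4 matched conditions, as PMVK was. The share of all genes lower at 4 of 4 was not computed. Of the 28, 14 were higher at 4 of 4, where 15.9% of all genes were. NSDHL, EBP and SC5D lay between 0.02 and 0.04, and GGPS1 was at 0.12. All 5 controllers were above 0 and none was called: SREBF2 at 0.53, MYLIP at 0.31, SCAP at 0.27, INSIG1 at 0.21 and INSIG2 at 0.10. STARD4 was at 0.04, ABCG1 at -0.04, SOAT1 at -0.12 and ABCA1 at -0.18.

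At single conditions, where each D3 time has 1 array per siRNA that is assumed to vary like the others, 0 of the 28 genes were called without D3 or after 8, 20 or 50 h of it. By limma 6, 0, 2 and 2 of them had an unadjusted p under 0.05 (21.4%, 0%, 7.14% and 7.14%), where 11.4%, 3.62%, 4.72% and 6.52% of all genes did. Few genes were called anywhere in these fits (0.00831% of all genes without D3 and after 8 or 20 h, and 0% after 50 h). The medians of the 28 were 0.16, 0.12, 0.18 and 0.19 in that order. In untreated cells the value rested on 1 array: 22 of the 28 genes were higher on p53i untreated replicate 2 than on replicate 1 (median 0.23, all genes 0.02), and without replicate 2 the untreated median was 0.03 with 15 of 28 above 0. Over all conditions the median was 0.11 without that replicate and the same 4 genes were called, whereas without p53i untreated replicate 1 it was 0.23 and 11 were called. Without either 20 h array 0 were called. Counts over all genes moved as well: 179 to 1046 with 1 array left out, where 781 were called on all 10 arrays. In the same order MSMO1 was at 0.70, 0.62, 0.75 and 0.26, and NPC1 at 0.26, 0.31, 0.44 and 0.55. LBR was at -0.20, -0.11, -0.17 and -0.76, the last from the p53i array on which its D3 call at 50 h also rested.

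**Figure D5:**
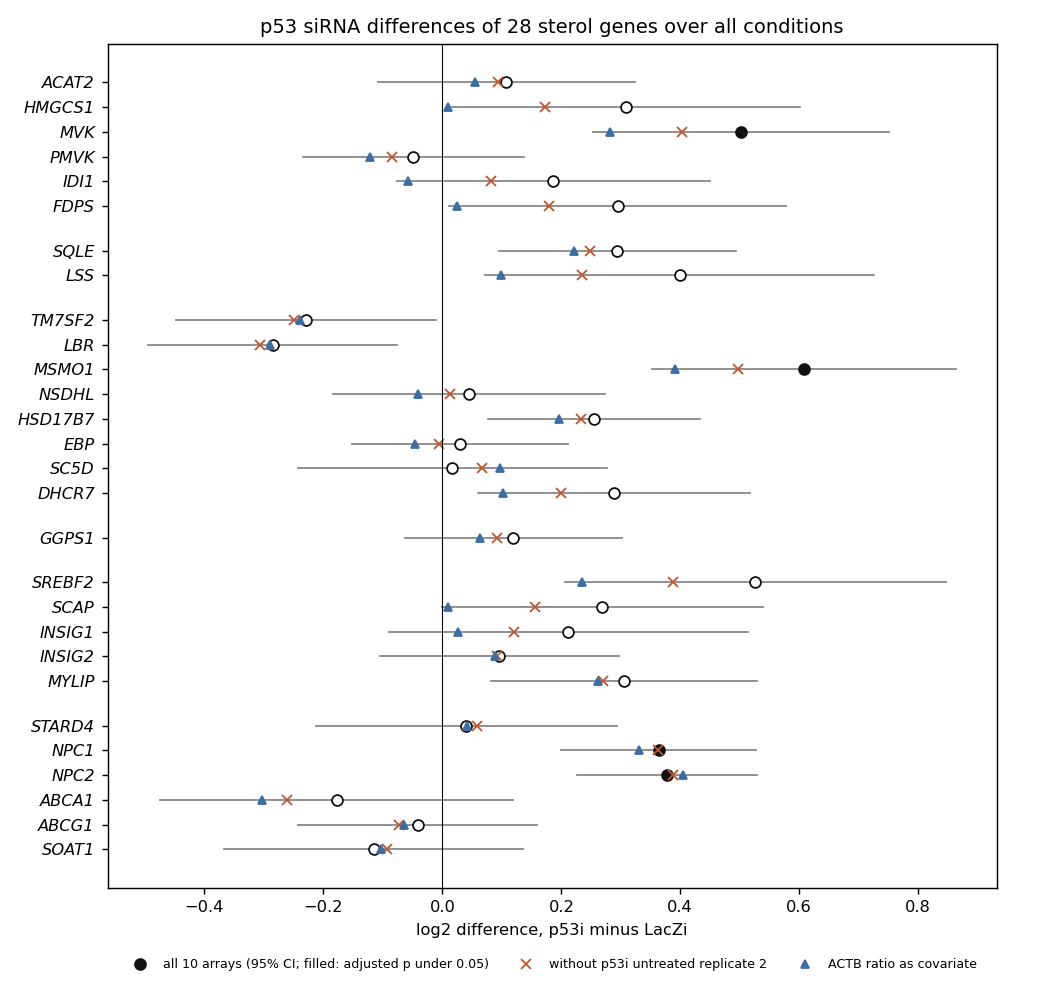
Fitted p53i minus LacZi differences (log2(signal + 16)) of the 28 tested genes in pathway order over all conditions, with 95% confidence intervals; filled circles passed the limma test at an adjusted p under 0.05. Crosses leave out p53i untreated replicate 2 and triangles add the ACTB ratio as a covariate: the median moves from 0.20 to 0.11 and 0.05, while NPC2 stands at 0.38, 0.39 and 0.40.

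The third comparison asks whether D3 acted differently under the 2 siRNAs. Within LacZi cells TM7SF2 rose by 1.68 ± 0.13 (SE), and within p53i cells by 1.36 ± 0.13 (limma adjusted p = 2.58e-04 and 0.00179). It was the 1 gene of 28 called in each (all genes 0.391% in LacZi cells, with 0.341% higher and 0.0499% lower, and 0.54% in p53i cells, with 0.391% higher and 0.15% lower). The difference between the siRNAs was -0.32 ± 0.19, with a 95% interval from -0.74 to 0.09 (adjusted p = 0.9). DHCR7 differed by 0.04, with an interval from -0.44 to 0.53, and LBR by -0.15, from -0.59 to 0.29. None of the 28 passed the test of the difference, nor did any of the 12034 genes, and 1 of the 28 had an unadjusted p under 0.05 (MYLIP, -0.48), where 5.36% of all genes did.

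The median D3 difference of the 28 genes was 0.10 in LacZi cells and 0.03 in p53i cells. With arrays centred on their medians the p53i value turned to -0.13, while the median of all genes moved to -0.18. The D3 difference in p53i cells minus that in LacZi cells was -0.53 for INSIG1, -0.48 for MYLIP, -0.45 for SCAP and -0.17 for SREBF2. The last controller, INSIG2, was close to 0 at -0.01. On this measure 18 of the 28 genes were below 0, as were 6500 of all 12034 genes tested. INSIG1 read 514 and 366 on the untreated LacZi arrays. Without p53i untreated replicate 2 the value for SREBF2 turned to 0.22 in the other direction, SCAP stood at -0.22, INSIG1 at -0.39 and MYLIP at -0.50.

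A further 42 genes that work beside these were listed, of which 34 were tested. In p53i cells 2 rose and 2 fell (11.8% of the 34, where 6.49% of all genes were called, 3.38% higher and 3.11% lower), and their median was 0.01. ERG28, a scaffold of the sterol demethylation complex, rose by 0.60 ± 0.11 (SE, limma adjusted p = 0.0113), from 989 ± 134 to 1514 ± 248.9 signal units (SD, n = 5 each). MBTPS1, the protease that makes the first cut in SREBP, rose by 0.40 ± 0.09 (adjusted p = 0.0234). ERLIN1, an endoplasmic reticulum protein that takes part in sterol-driven enzyme degradation, fell by 0.62 ± 0.12 (adjusted p = 0.0144), from 454 ± 62.0 to 292 ± 50.1. PDSS1, which starts the side chain of ubiquinone, fell by 0.48 ± 0.10 (adjusted p = 0.0167). All 4 calls were lost when probe sets were averaged (0.28, 0.26, -0.27 and -0.09) and with the RNA integrity covariate (0.36, 0.35, -0.58 and -0.36). Of 10 fits that each left out 1 array, 8 lost the call of MBTPS1 and 4 that of PDSS1. The calls of ERG28 and ERLIN1 were each lost in 2 of them. For the D3 mean, 0 of the 34 were called by limma (all genes 4.4%). An unadjusted p under 0.05 was found for 10 of them (29.4%, where 19.4% of all genes had one), and the smallest adjusted p was 0.0548, that of ACAT1, the mitochondrial thiolase.

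Across the probe sets of the list, 31 other probe sets of 15 genes lay above the filter, and 21 of them had the sign of the chosen one for siRNA and 21 for D3. TM7SF2, LBR, PMVK, MSMO1 and NPC2 are each measured by 1 probe set, so no second one bears on them. Those of IDI1 and HSD17B7 are of a type that may bind related transcripts.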

How the data were processed

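The deposited values are signal intensities of 54675 probe sets on each of 10 arrays, made by the authors with MAS5, per the submitters' processing notes (version not given in the sources used here). They share a common trimmed mean, from the values, and were not normalized further. From these, 62 control probe sets were left out, and 41091 probe sets with 1 gene symbol gave 19775 genes (1801 had several symbols and 11721 none). Each gene took the probe set of highest mean log2(signal + 16). Genes whose mean reached a signal of 35.3 (the upper 50% of probe sets) were tested, 12034 in all. The offset of 16 understates changes of weak genes.

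The tests used limma (version 3.58.1, R 4.3.3): linear models were moderated by eBayes with its trend on mean intensity, and p-values were adjusted by Benjamini and Hochberg's method across the 12034 genes, calling those under 0.05. An additive fit of siRNA and D3 time gave the siRNA difference over all conditions and the D3 differences. A fit of 8 group means gave the siRNA difference at each time. D3 within each siRNA and the interaction came from the additive fit with an added term for siRNA with D3 at any time. That fit assumes that the differences among the D3 times are the same under both siRNAs. Intervals are 95%, and the number of arrays limits the precision. The scripts were tested on simulated data.

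The genes, lists and tests were chosen with earlier results of these data known. All 31 listed genes are accounted for, with per-array signals for those called in at least 1 comparison and for TM7SF2, DHCR7 and LBR, and the other pathway genes are named where called. The alternatives were normalization, offset, filter, averaging of probe sets, no intensity trend, the ACTB ratio, group means, the replicate block and leaving out each array. Symbols and promoters came from the array annotation and RefSeq (GRCh38.p14). Replicate numbers were not treated as pairing.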

Additional observations from a re-analysis of the deposited data

Results flagged for a closer look

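SCAP, which escorts SREBP-2 out of the endoplasmic reticulum, was higher with D3 on 3 of 3 arrays of LacZi cells (0.20, 0.12 and 0.31 on the log2 scale) and lower on 3 of 3 arrays of p53i cells (-0.46, -0.02 and -0.24), each against the mean of the untreated arrays of that siRNA. The p53i count rests on untreated replicate 2: the untreated signals were 767 and 1063, and those with D3 were 651, 890 and 764 at 8, 20 and 50 h. Against replicate 1 alone the 20 h array was higher and the 50 h array nearly level. The difference between the siRNAs was -0.45 ± 0.23 (SE) and did not pass the test (limma adjusted p = 0.893). Without p53i untreated replicate 2 it was -0.22.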

How the results depend on the processing

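There were 10 arrays, with 1 per siRNA at each D3 time, and a gene that was not called may still have changed. Weak probe sets sit near background, where the offset shrinks differences. No called difference of a listed gene turned its sign under any alternative run. TM7SF2 kept its calls on the D3 mean, at 20 h, at 50 h and in LacZi cells under every alternative, and in p53i cells lost it without the intensity trend (1.36) and without the 2 arrays of the highest ACTB ratio (1.31).

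Of the 28 genes, the 4 called for siRNA over all conditions were 2 with probe sets averaged and 0 without the intensity trend, with the ACTB ratio as a covariate, without the 2 arrays of the highest ratio, and with the 8 group means. The 5 called on the D3 mean were 1 without the trend and 1 with group means. Which genes were called on it also changed. Without the 2 arrays of the highest ratio LBR and ABCG1 lost their calls, and HMGCS1 and MSMO1 were called higher. DHCR7 lost its call with median centring and no filter. With probe sets averaged DHCR7 and ABCG1 lost theirs and NPC1 gained one. Quantile normalization added MSMO1 and NPC1, and the ACTB covariate added MSMO1. The 5 at 50 h were 3 with probe sets averaged, 1 without the trend and 8 without the 2 arrays of the highest ratio. The 1 called at 8 h was 0 with median centring, no offset, no filter, probe sets averaged, no trend, and without those 2 arrays. At 20 h 1 became 2 with the ACTB covariate. From 8 to 50 h 1 became 0 without the trend. In p53i cells 1 became 2 with median centring, and 0 without the trend or without those 2 arrays. The cause was not tested.

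Leaving out each array in turn gave 0 to 11 called genes for siRNA over all conditions, 0 to 3 in untreated cells, 1 to 8 for the D3 mean, 0 to 1 at 8 h, 1 to 4 at 20 h, 1 to 8 at 50 h, 0 to 1 from 8 to 50 h, and 1 to 2 for D3 in p53i cells. The siRNA difference at a D3 time could not be fitted without an array of that time. For the interaction and for siRNA at 8, 20 and 50 h, 0 were called under each alternative run.

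The replicate numbers share only a number (correlation of the untreated replicate differences 0.21 over 12034 genes). The replicate block sets the untreated replicate 2 arrays apart from all others. Its D3 mean is thus taken against the untreated replicate 1 arrays alone. With the replicate block, 7 genes were called on the D3 mean, of which 3 (TM7SF2, DHCR7 and PMVK) were among the 5 called without it. LBR (-0.39, limma adjusted p = 0.0753) and ABCG1 (-0.39, adjusted p = 0.0634) lost their calls on the mean, and GGPS1, LSS, MSMO1 and SQLE gained one, all higher. The block gave 9 called genes for siRNA over all conditions and 3 in untreated cells. With it 3 were called for D3 at 20 h, 9 at 50 h, 4 in LacZi cells and 3 in p53i cells. Calls over all genes under the block are not given here. Across the alternatives, calls over all genes reached 1302 for siRNA, 561 for it in untreated cells and 1115 for D3 at 50 h. The counts under the block are therefore not read as particular to the listed genes.

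Over all genes, 781 were called for siRNA (51 to 1302 over the alternatives), 529 for the D3 mean (52 to 973), 21 at 8 h (1 to 64), 71 at 20 h (7 to 400), 518 at 50 h (46 to 1115), 16 from 8 to 50 h (0 to 74), 47 in LacZi cells (11 to 463), 65 in p53i cells (2 to 569) and 0 for the interaction (0 to 61). For siRNA in untreated cells and at 8, 20 and 50 h they were 1 (0 to 561), 1 (0 to 23), 1 (0 to 59) and 0 (0 to 152). Median centring moved the median of all genes to 0.13 for siRNA in untreated cells, -0.12 for D3 at 20 h, -0.11 at 50 h, -0.18 in p53i cells and -0.16 for the interaction. It moved the share of higher genes among those called from 81.0% to 64.3% at 8 h, 60.6% to 37.5% at 20 h, 42.5% to 21.8% at 50 h and 72.3% to 17.5% in p53i cells.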
